A study of Mus musculus with 4 samples.

Results

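Bhlha15, Creb5, Meis2, Lmo4, Maf, Bhlhe41 and Cited1, all regulators of transcription, were followed through 5 cell classes of the mouse ventral prostate. They are 7 of the 17896 genes measured, and they were chosen because their levels differed between te2 and sham mice in at least 1 class. The te2 and sham values below are therefore a description and carry no test. Differences between cell classes within a library were not the contrast used to choose the genes, and were tested. A gene can only differ between te2 and sham in a class where it is seen, so these tests are not independent of the choice.

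The data are single-cell RNA sequencing of 4 ventral prostates of wild-type (wt) C57BL6j mice, each library from the paired lobes of 1 animal. Pellets were implanted and the glands taken 2 weeks later, from 2 mice of a group labelled sham and 2 of a group labelled te2. The series concerns steroid hormones out of balance. The labels do not spell out te2, its dose or what the sham mice received. Cells of 1 mouse are not replicates, so conditions were compared over the 2 sham and 2 te2 libraries.

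Of 11245 cells in the tables, 8091 had at least 500 transcript molecules (unique molecular identifiers, UMIs) and at most 20% mitochondrial counts. Cells were put in a class by the share of their UMIs from marker genes. The luminal class, the secretory epithelium, had at least 10% from Sbp and Spink1, and held 3226 cells. Of the rest, cells with at least 0.2% from Krt5, Krt14 and Krt15 were basal (1368). At 0.3% from Col1a2, Col3a1 and Dcn they were fibroblast (553), at 0.3% from C1qa, C1qb and C1qc macrophage (294), and at 0.1% from Krt4, Wfdc2 and Cxcl17 proximal (1216), after the epithelium near the urethra. The remaining 1434 cells had no class. These names stand for the gates, and a class is to be read as luminal-like, basal-like and so on. All 8 fibroblast and all 8 macrophage markers were detected in every library of those classes. In the basal class the basal marker Dsc3 was at 0 in both sham libraries and Aqp3 in sham replicate 1. The summed level of the 8 basal markers was 5013 and 5370 CPM (counts scaled to a total of 1000000 UMIs) in sham against 9732 and 12708 in te2. In the proximal class 8 of the 10 proximal markers were detected in sham replicate 1, without Psca and Ly6d, and all 10 in the other libraries.

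Cell numbers and depth differed between the groups. Sham replicate 1 had 35 proximal and 44 basal cells and sham replicate 2 had 169 and 160, while the te2 libraries had 376 and 636 proximal and 573 and 591 basal cells. The median luminal cell held 1551 (sham 1), 2455 (sham 2), 8265.5 (te2 1) and 10359 (te2 2) UMIs. Sbp and Spink1, which mark the luminal secretion, also made up 1.57% to 4.43% of the UMIs of the 4 other classes in sham and 0.183% to 0.926% in te2. Between 1 and 5 barcodes were shared by any pair of libraries.

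As background, the 7 genes act at different points of transcription. Bhlha15 (Mist1) is a basic helix-loop-helix factor of secretory cells that enlarges the machinery of regulated secretion. Bhlhe41 (Dec2) is a repressor of the same fold that acts on E-boxes and belongs to the circadian clock. Creb5 is a basic leucine zipper factor of the CREB and ATF family, which binds the cAMP response element, and Maf is a large basic leucine zipper factor. Meis2 is a homeodomain partner of PBX and HOX proteins. Lmo4 and Cited1 do not bind DNA themselves. Lmo4 is a LIM-only adaptor that binds Ldb1, and Cited1 is a coactivator that binds the p300 and CBP acetyltransferases and the estrogen receptor.

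The sequences at the starts of 4 of these genes are shown because these genes carried the largest differences in luminal cells. They are RefSeq windows of 300 bases on GRCm38.p6, from 250 bases before to 50 after an annotated start, and the counts were made on a later build. Windows were found for 6 of the 7 genes (11 windows). Capitals mark matches, on either strand, to 7 motifs. The E-box of clock repressors was searched as CACGTG, an E-box that Bhlha15 can bind as CATATG and a common further E-box as CAGCTG. The cAMP response element was searched as TGACGTCA and the element of MEIS proteins as TGACAG. The core element of MAF proteins was searched as TGCTGAC and that of the androgen receptor as AGAACA.
Bhlha15, chr5:144190036-144190335, plus strand: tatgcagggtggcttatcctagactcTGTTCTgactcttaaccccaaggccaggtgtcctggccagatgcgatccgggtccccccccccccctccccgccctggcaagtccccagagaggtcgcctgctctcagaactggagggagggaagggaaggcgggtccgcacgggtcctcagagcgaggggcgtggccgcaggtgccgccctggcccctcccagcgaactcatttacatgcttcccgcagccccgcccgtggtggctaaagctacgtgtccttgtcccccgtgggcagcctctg
Creb5, the first of 2 starts, chr6:53287053-53287352, plus strand: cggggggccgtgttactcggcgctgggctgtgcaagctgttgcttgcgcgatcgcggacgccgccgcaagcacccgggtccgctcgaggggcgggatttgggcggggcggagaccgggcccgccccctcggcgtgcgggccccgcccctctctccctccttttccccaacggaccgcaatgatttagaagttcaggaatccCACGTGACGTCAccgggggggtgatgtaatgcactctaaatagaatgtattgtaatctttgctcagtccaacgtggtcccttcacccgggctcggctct
Bhlhe41, chr6:145865371-145865670, minus strand: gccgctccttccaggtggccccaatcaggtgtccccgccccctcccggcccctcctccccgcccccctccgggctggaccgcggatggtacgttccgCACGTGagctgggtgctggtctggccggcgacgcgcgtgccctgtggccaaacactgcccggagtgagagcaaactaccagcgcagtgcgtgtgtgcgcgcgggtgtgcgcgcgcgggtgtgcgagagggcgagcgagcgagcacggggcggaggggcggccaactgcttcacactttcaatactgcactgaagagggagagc
Cited1, the first of 3 starts, chrX:102252132-102252431, minus strand: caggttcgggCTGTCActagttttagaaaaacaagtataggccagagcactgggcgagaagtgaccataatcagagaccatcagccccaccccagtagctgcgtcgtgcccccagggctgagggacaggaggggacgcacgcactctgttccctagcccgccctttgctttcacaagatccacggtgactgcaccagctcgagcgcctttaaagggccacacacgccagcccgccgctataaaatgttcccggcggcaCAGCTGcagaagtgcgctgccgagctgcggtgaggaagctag
The Creb5 window held CACGTG beginning 49 bases before the start and TGACGTCA beginning 45 bases before it, and the 2 matches share 2 bases. The Bhlhe41 window held CACGTG beginning 153 bases before the start. Of all 32851 windows in the table, 7.15% held CACGTG and 1.79% held TGACGTCA. The Bhlha15 window held 1 androgen receptor core element, as did 19.0% of all windows, and the Cited1 window held 1 MEIS element and 1 CAGCTG, found in 19.2% and 16.3% of windows. These are matches of letters and show no binding.

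Levels are given as CPM, the gene's UMIs over all UMIs of the class in that library, times 1000000. Log2 changes and their standard errors come from edgeR, which fits the summed counts with TMM scaling. The first comparison concerned the luminal cells. In these cells 5 of the 7 genes had sham and te2 libraries that did not overlap: Bhlha15, Creb5, Bhlhe41 and Maf were lower in te2 and Cited1 was higher. Across all 10976 genes tested in luminal cells, 66.7% had libraries that did not overlap (37.3% higher and 29.5% lower in te2) and 32.0% passed an adjusted p of 0.05 (18.0% higher and 14.0% lower). Nothing is read from the count of 5, since the genes were chosen on this contrast. Bhlha15, the secretory factor, stood at 390.3 and 397 CPM in sham and 73.4 and 88.5 in te2. Both te2 libraries lay far below both sham libraries, which differed little from each other, and the log2 change was -2.33 ± 0.14. Creb5 stood at 369 and 478 CPM in sham and 29.8 and 73.6 in te2, a log2 change of -3.04 ± 0.28. The te2 libraries differed more than 2-fold from each other, and the Creb5 change was -3.92 without te2 replicate 2 and -2.53 without te2 replicate 1.

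Bhlhe41 and Maf were at low levels in luminal cells. Bhlhe41 stood at 24.6 and 23.8 CPM in sham and 3.61 and 2.43 in te2, from 12 counts in each te2 library, a log2 change of -3.09 ± 0.28. Its close relative Bhlhe40, which shares the E-box repressor function and was named after its values were seen, went the other way, at 1.68 and 1.31 CPM in sham and 11.1 and 12.9 in te2. The Bhlhe40 log2 change was 2.96 ± 0.39, from 5 counts in each sham library, and is a description without a test. Maf stood at 24.2 and 15.9 CPM in sham and 7.22 and 6.67 in te2, a log2 change of -1.57 ± 0.28. Maf was 390 to 619 CPM in fibroblasts and 557 to 683 in macrophages (the values by library are given below), and the summed level of the 8 macrophage markers within luminal cells was 179 and 64.5 CPM in sham and 69.4 and 13.9 in te2. The 8 fibroblast markers within luminal cells summed to 169 and 100.1 CPM in sham and 173 and 68.3 in te2. The part of free or foreign RNA in the luminal Maf difference was not tested.

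Cited1 was nearly absent from sham luminal cells, at 2.69 and 4.96 CPM (8 and 19 counts), and stood at 47.8 and 59.8 CPM in te2 (159 and 296 counts). Both te2 libraries lay more than 9-fold above the higher sham library, and the log2 change was 3.72 ± 0.26. Lmo4 stood at 157 and 132 CPM in sham and 211 and 129 in te2, so that the groups overlapped (log2 change 0.16 ± 0.18). Meis2 had 9 to 14 counts in each luminal library, at 2.63 to 3.66 CPM, and also overlapped (log2 change -0.26 ± 0.44). The summed level of the 10 proximal markers in luminal cells was 308 and 329 CPM in sham and 2384 and 2459 in te2, and its part in these differences was not tested.

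**Figure D1:**
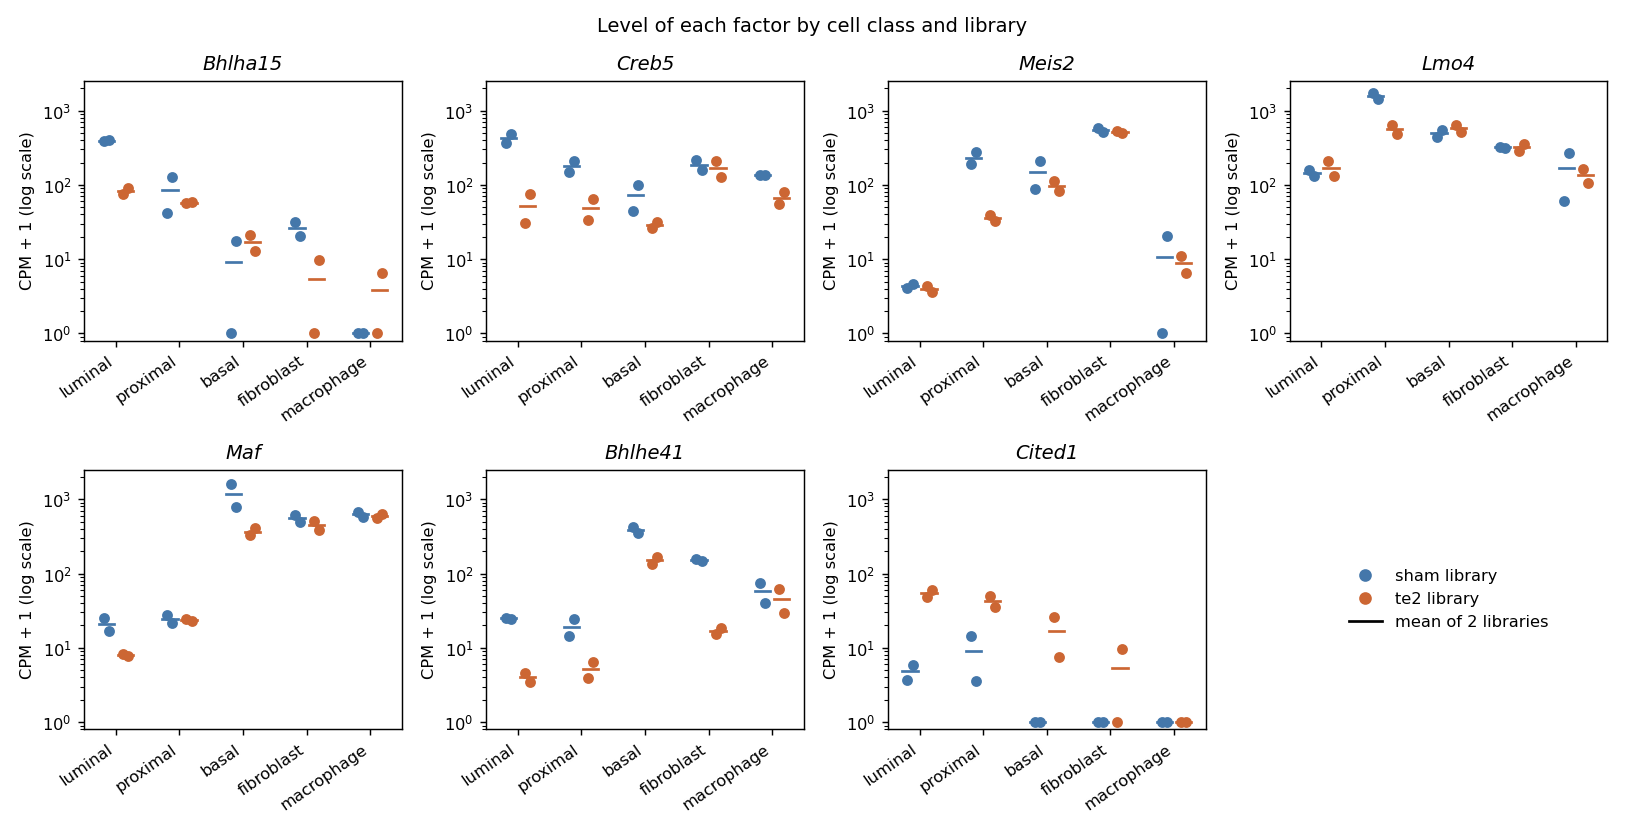
Level of the 7 genes (CPM + 1, log axis) in each cell class, with 1 point per library and a line at the mean of the 2 libraries of a group. Bhlha15 separates the groups in luminal cells (390.3 and 397 against 73.4 and 88.5 CPM), Meis2 in proximal cells and Cited1 in luminal cells. The sham points of Cited1 rest on 1 count in each proximal library and on no count in basal cells.

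Because te2 cells were deeper, the share of cells with a UMI was also read after each cell was thinned to 1000 UMIs. In luminal cells Bhlha15 was seen in 43.4% and 51.0% of sham cells and 38.8% and 48.5% of te2 cells before thinning. After thinning it was seen in 27.0% and 27.8% of sham cells and in 6.76% and 6.74% of te2 cells. The thinned shares separated the groups as the CPM did, whereas the unthinned shares overlapped. Thinning left out 406 and 280 sham and 22 and 25 te2 luminal cells that were too shallow. In macrophages, which should lack Bhlha15, no thinned cell of any library had a UMI, at a median before thinning of 873.5 UMIs (sham 1), 785 (sham 2), 2088 (te2 1) and 1874 (te2 2), although the sham libraries had only 22 and 15 such cells deep enough. Thinned luminal shares of Creb5 were 26.3% and 32.8% in sham and 2.70% and 5.65% in te2 (36.5% and 48.5%, and 17.3% and 32.8%, unthinned). Those of Cited1 were 0.461% and 0.593% in sham and 4.59% and 5% in te2 (0.568% and 1.32%, and 23.0% and 33.2%, unthinned), and no macrophage of the 4 libraries held a Cited1 UMI.

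The luminal differences were also read along the share of Sbp and Spink1, the secretory transcripts that define the class. Only cells that passed none of the other gates were used. From 10% to 15% of UMIs up to 35% and more, Bhlha15 ran from 254 to 540.2 CPM in the sham libraries and from 39.1 to 114 in the te2 libraries. In each of the 4 ranges of this share both sham libraries were above both te2 libraries for Bhlha15 and Creb5. Creb5 ran from 217 to 621 CPM in sham and from 10.1 to 122 in te2. Within the gate, Bhlha15, Creb5 and Lmo4 were in each library lowest in the cells with the highest share of Sbp and Spink1, a share that itself takes up UMIs. Cited1 was 0 to 6.90 CPM in sham and 32.6 to 68.0 in te2 over the same ranges, and in cells just outside the gate, at 5% to 10%, it was 0 in both sham libraries and 62.5 and 71.0 CPM in te2. Bhlha15 just outside the gate was 291 and 295 CPM in sham and 122 and 103 in te2, nearer to each other than inside it.

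**Figure D2:**
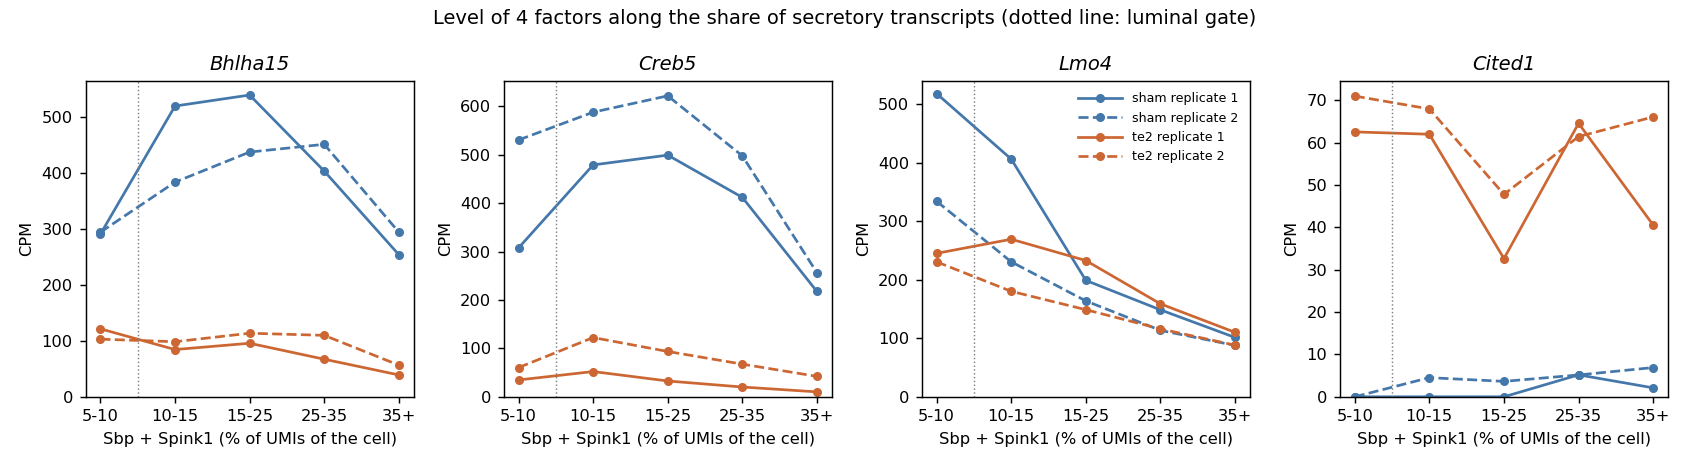
Level (CPM) of Bhlha15, Creb5, Lmo4 and Cited1 in cells grouped by the percent of their UMIs from Sbp and Spink1. There is 1 line per library and a dotted line at the luminal gate of 10%, and cells that passed any other gate are left out. For Bhlha15 and Creb5 the sham lines stay above the te2 lines in all ranges inside the gate, the Lmo4 lines cross, and the Cited1 te2 lines stay at 32.6 CPM or above.

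Bhlha15 and Creb5 were counted together in single luminal cells thinned to 2000 UMIs. Both were seen in 112 of 478 and 214 of 741 sham cells, where the product of the 2 shares gives 107 and 211. In te2 both were seen in 3 of 354 and 6 of 445 cells, where the product gives 2.40 and 7.27. The 2 genes thus met in about as many cells as their separate shares give, in sham and in te2.

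The proximal cells differed from the luminal cells in which genes stood apart. Meis2, Lmo4, Creb5 and Bhlhe41 were lower in te2 and Cited1 higher, with no overlap of the groups, while Bhlha15 and Maf overlapped. Of the 10068 genes tested in proximal cells, 55.9% did not overlap (29.3% higher and 26.7% lower) and 10.3% passed the adjusted p (5.54% higher and 4.78% lower). Meis2, the HOX partner, stood at 189 and 272 CPM in sham (14 and 106 counts) and 37.8 and 32.1 in te2, a log2 change of -2.80 ± 0.22. Without sham replicate 2, which leaves the library of 35 proximal cells as the only sham sample, the Meis2 change was -2.11. In class sums thinned to the lowest library total of the class (73935 UMIs in proximal cells) the Meis2 change was -4.05. Few te2 Meis2 counts remained at that depth. The 8 fibroblast markers, whose cells hold more Meis2, summed to 67.6 and 43.7 CPM within sham proximal cells and 28.1 and 40.5 within te2 proximal cells, and their part in the Meis2 difference was not tested.

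Lmo4, the LIM adaptor, stood at 1745 and 1438 CPM in sham proximal cells and 635 and 479 in te2, a log2 change of -1.39 ± 0.24. Both te2 libraries were below both sham libraries by more than 2-fold. The share of proximal cells with an Lmo4 UMI was 80.0% and 79.9% in sham and 77.8% and 76.9% in te2, and after thinning 80.0% and 72.1% against 43.2% and 37.3%. Thinned luminal cells held Lmo4 in 12.9% and 10.8% of sham and 15.7% and 10.0% of te2 cells. No class was free of Lmo4, so no background share could be given.

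Creb5 stood at 149 and 211 CPM in sham proximal cells and 32.2 and 63.1 in te2, a log2 change of -2.05 ± 0.24. Without sham replicate 2 the Creb5 change was -1.38, and in thinned sums it was -1.01. Bhlhe41 rested on 1 and 9 counts in sham (13.5 and 23.1 CPM) and on 12 and 15 in te2 (2.93 and 5.47 CPM), and its log2 change of -2.37 ± 0.69 was -1.43 without sham replicate 2. Cited1 had 1 count in each sham proximal library (13.5 and 2.57 CPM) and 199 and 96 counts in te2 (48.6 and 34.99 CPM). Over the summed libraries the te2 level of Cited1 was 9.99 times the sham level, with an exact 95% interval of 2.74 to 82.9 that covers counting error only. The fitted log2 change of Cited1, 3.30 ± 0.70, rests on these 2 sham counts and was 1.95 without sham replicate 2 and 4.02 without sham replicate 1. Bhlha15 stood at 40.6 and 128 CPM in sham (3 and 50 counts) and 55.2 and 58.0 in te2. The te2 values of Bhlha15 lay between the sham values, and the log2 change of -0.94 ± 0.27 turned to 0.78 without sham replicate 2. Maf stood at 27.1 and 20.5 CPM in sham and 23.4 and 22.2 in te2 (log2 change 0.11 ± 0.51).

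**Figure D3:**
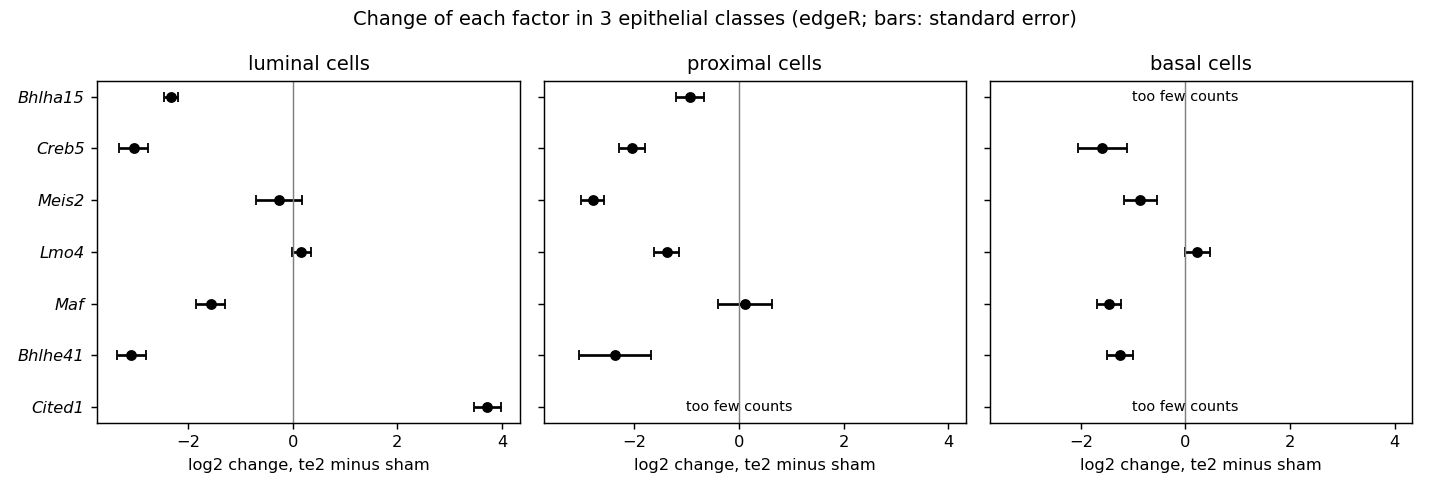
Log2 change between te2 and sham of the 7 genes in luminal, proximal and basal cells (edgeR estimates, bars are standard errors, 2 libraries a group). Creb5 and Bhlhe41 lie below 0 in all 3 classes, Meis2 and Lmo4 change most in proximal cells (-2.80 and -1.39), and 3 estimates that rest on 3 or fewer counts in a group are left out.

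In the basal cells Maf, Bhlhe41 and Creb5 were lower in te2 without overlap, Cited1 was seen in te2 alone, and Meis2, Lmo4 and Bhlha15 overlapped. Of the 9132 genes tested in basal cells, 55.5% did not overlap (31.3% higher and 24.3% lower) and 7.73% passed the adjusted p (4.94% up in te2, 2.79% down). Maf, the large MAF factor, stood at 1589.9 and 797 CPM in sham (72 and 146 counts) and 326 and 404 in te2 (504 and 689 counts), a log2 change of -1.46 ± 0.23. The sham libraries differed 2-fold, and both were above te2. Bhlhe41 stood at 419.6 and 355 CPM in sham and 133 and 167 in te2, a log2 change of -1.25 ± 0.24. With stricter gates (15% for luminal cells, the other gates doubled) the Bhlhe41 change was -0.46. Creb5 stood at 44.2 and 98.2 CPM in sham, from 2 and 18 counts, and at 25.2 and 30.5 in te2, a log2 change of -1.59 ± 0.46. The Creb5 change was -0.31 without sham replicate 2, -0.59 with stricter gates and -0.99 in cells that passed exactly 1 gate.

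Of the basal te2 cells, 251 of 591 and 310 of 573 also passed another gate, against 16 of 44 and 37 of 160 in sham, and the 10 proximal markers summed to 2678 and 2373 CPM in te2 basal cells against 309 and 911 in sham. Cited1 had no count among 45286 and 183238 UMIs of the sham basal cells and 39 and 11 counts in te2 (25.2 and 6.45 CPM). Against a floor of 3 counts over both sham libraries, Cited1 was at least 1.17-fold higher in the summed te2 libraries. The upper exact 95% limit of the sham zeros was 81.5 CPM (sham 1) and 20.1 CPM (sham 2). The single libraries therefore do not tell the groups apart. The depth of the sham basal cells allows no closer bound. It was the 1 gene of the 7 that did not pass the filter on low counts in basal cells, while all 7 passed it in luminal and proximal cells. Meis2 stood at 88.3 and 207 CPM in sham and 112 and 81.5 in te2, and its log2 change of -0.86 ± 0.31 turned to 0.48 without sham replicate 2. Lmo4 stood at 442 and 540.3 CPM in sham and 646 and 509 in te2 (log2 change 0.23 ± 0.24). Bhlha15 had 0 and 3 counts in sham and 31 and 20 in te2, and the te2 level was 1.19 times the sham level (exact 95% interval 0.386 to 5.98, counting error only).

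The stromal and immune classes set the epithelial differences in context. They are described without a fit. In fibroblasts Bhlhe41 and Bhlha15 were lower in te2 without overlap, where 49.7% of the 4450 genes past the filter on low counts did not overlap (29.7% higher and 20.1% lower). Fibroblast Bhlhe41 stood at 154 and 147 CPM in sham (40 and 15 counts) and 14.3 and 17.5 in te2 (3 and 6 counts), so that the mean of sham was 9.47 times that of te2. Both sham libraries lay far above both te2 libraries. Bhlha15 stood at 30.8 and 19.6 CPM in sham fibroblasts (8 and 2 counts) and at 0 and 8.73 in te2 (0 and 3 counts). Over the summed libraries the te2 level of fibroblast Bhlha15 was 0.196 times the sham level (exact 95% interval 0.0347 to 0.763, counting error only). The luminal transcripts Sbp and Spink1 within fibroblasts were also lower in te2, at a mean of 4527 CPM against 34376 in sham, and their part in the Bhlha15 difference was not tested. Fibroblast Meis2 stood at 577 and 520.2 CPM in sham and 530.5 and 500.5 in te2, and fibroblast Lmo4 at 323 and 314 in sham and 287 and 358 in te2. Fibroblast Maf stood at 619 and 491 CPM in sham and 507 and 389.9 in te2, and fibroblast Creb5 at 215 and 157 in sham and 210.3 and 125 in te2. The groups overlapped for each of these 4 genes in fibroblasts.

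In macrophages Maf stood at 683 and 581 CPM in sham and 557 and 628 in te2, with overlap. Macrophage Creb5 stood at 134 and 136 CPM in sham, from 9 and 7 counts, and at 53.7 and 78.5 in te2, from 16 and 14. It was the 1 gene of the 7 whose groups did not overlap in macrophages, where 53.6% of 2173 genes past the filter did not (27.8% higher and 25.8% lower). Macrophage Bhlhe41 stood at 74.2 and 38.7 CPM in sham and 60.4 and 28.0 in te2, with overlap. Lmo4 ranged from 59.4 to 271 CPM over the 4 macrophage libraries, and Meis2 had 0 to 3 counts. Cited1 had no count in any macrophage library.

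Levels of a luminal gene in other classes can come from free RNA, so those of Sbp and Spink1 are given beside them. The luminal gate keeps Sbp and Spink1 under 10% of the UMIs of any cell in the other classes, which limits the comparison. The part of free RNA in these levels was not tested. In sham fibroblasts Sbp and Spink1 were 0.1 and 0.126 of the luminal level. Bhlha15 in sham fibroblasts was 0.0788 and 0.0495 of its luminal level (8 and 2 counts). Creb5 in sham fibroblasts was 0.584 and 0.329 of its luminal level. In proximal cells Sbp and Spink1 were 0.0499 and 0.0714 of the luminal level in sham and 0.0283 and 0.0319 in te2, and Bhlha15 was 0.104 and 0.324 in sham and 0.752 and 0.655 in te2.

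Differences between classes were tested within libraries, with the library as a block and both groups in the fit. Proximal cells had more Meis2 and Lmo4 and less Bhlha15, Creb5 and Cited1 than luminal cells. These are 5 of 7 genes past an adjusted p of 0.05, where 15.3% of all 11757 genes tested passed (7.38% higher and 7.88% lower). Nothing is read from this count, since the choice of genes drew on the same class sums. Meis2 was higher in proximal cells by 4.31 ± 0.34 on the log2 scale (edgeR adjusted p = 1.91e-07). Lmo4 was higher by 1.90 ± 0.25 (adjusted p = 3.89e-05). The Bhlha15 difference was -1.68 ± 0.27 (adjusted p = 0.000256) and that of Creb5 -1.21 ± 0.23 (adjusted p = 0.00130). These 4 genes had the same sign in the sham libraries alone and in the te2 libraries alone, with Meis2 at 5.43 and 3.01 and Lmo4 at 2.74 and 1.20. Bhlha15 was at -2.53 in sham alone and -1.05 in te2 alone, and Creb5 at -1.87 and -0.65.

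Cited1 differed by -0.92 ± 0.21 between proximal and luminal cells (adjusted p = 0.00479), which rests on te2 since sham proximal cells held 2 counts. It missed the threshold without te2 replicate 2 (-0.48), with DESeq2 (-0.88), in thinned sums (-1.17) and with library totals as the scale (-0.35). Maf was 0.73 ± 0.26 (adjusted p = 0.0723) over all libraries. It passed the threshold in cells past exactly 1 gate (0.89), with library totals (1.34), without the filter on low counts (0.71) and with totals that leave out the gate genes (0.89). It did not pass with DESeq2 (0.55), in cells of at least 1000 UMIs (0.73), in thinned sums (0.21) or without the library block (0.70). Maf was at -0.35 in sham alone (adjusted p = 0.785) and at 1.17 in te2 alone (adjusted p = 9.01e-06), and the difference between these values was not tested. Bhlhe41 was -0.43 ± 0.34 (adjusted p = 0.469) and turned to 0.19 with library totals.

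Basal cells had more Maf, Meis2, Bhlhe41 and Lmo4 and less Bhlha15, Cited1 and Creb5 than luminal cells. All 7 genes passed the threshold in this comparison, where 44.2% of 11935 genes did (19.8% higher and 24.4% lower). Nothing is read from this count either. Maf was higher in basal cells by 4.90 ± 0.19 (adjusted p = 1.93e-37), Meis2 by 4.42 ± 0.24 (adjusted p = 5.22e-28) and Bhlhe41 by 3.78 ± 0.20 (adjusted p = 1.21e-28). Lmo4 was higher by 0.98 ± 0.18 (adjusted p = 3.31e-06). The Bhlha15 difference was -3.60 ± 0.26 (adjusted p = 1.98e-21), that of Cited1 -2.56 ± 0.27 (adjusted p = 2.51e-13) and that of Creb5 -2.17 ± 0.23 (adjusted p = 4.06e-13). All 7 kept their sign and stayed past the threshold in every alternative that could be fitted. Bhlha15 was at -5.70 in sham alone, -3.05 in te2 alone and -4.40 without te2 replicate 1. Bhlhe41 was at 3.14 and 5.01 and Creb5 at -3.20 and -1.58 in sham and te2 alone. Cited1 ran from -4.19 with stricter gates to -1.65 without te2 replicate 2, and was -3.94 without te2 replicate 1. In thinned sums Bhlha15 was at -4.95, Creb5 at -3.31 and Meis2 at 3.48. Thinning was done within each class, so basal and luminal sums kept unequal depth.

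Fibroblasts hold more Meis2 than basal cells and also hold Maf, so their markers were read beside these differences. The 8 fibroblast markers summed to 2451 and 1621 CPM in sham and 1632 and 2579 in te2 basal cells, against 68.3 to 173 in luminal cells. Most of the basal sum was Dcn, a proteoglycan, at 2363 and 1572 CPM in sham and 1592 and 2477 in te2. Col1a1, a fibrillar collagen, was 0 in both sham basal libraries and 4.52 and 18.8 CPM in te2, where fibroblasts had 1712 to 3169. The 8 macrophage markers summed to 66.2 and 21.8 CPM in sham and 93.7 and 90.8 in te2 basal cells. In cells that passed exactly 1 gate, the difference between basal and luminal cells was 5.15 for Maf and 4.98 for Meis2. In all cells it was 4.90 and 4.42. The setting of 1 gate leaves out basal cells past the fibroblast gate, but also luminal cells past another gate. The part of fibroblast RNA in these differences was not tested.

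Scaling matters for the class comparisons, because luminal cells give a large share of their UMIs to 2 genes. With library totals in place of TMM the median log2 difference of all genes was 0.56 for proximal against luminal cells and 0.73 for basal against luminal cells, and 95.5% and 87.2% of the genes past the threshold were higher, against 48.4% and 44.8% with TMM. With totals that leave out the gate genes the shares were 67.6% in both comparisons. On the scale of totals Lmo4 differed by 2.57 and 1.81 and Creb5 by -0.57 and -1.36.

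**Figure D4:**
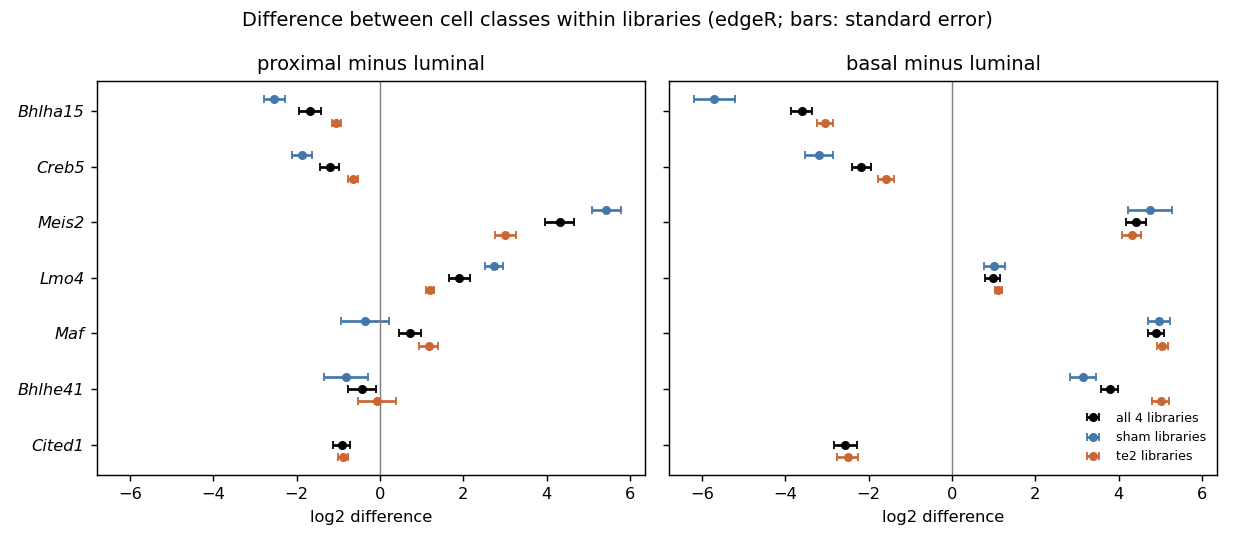
Log2 difference between proximal and luminal cells (left) and basal and luminal cells (right) of the 7 genes, from all 4 libraries (black) and from the sham or te2 libraries alone (bars are standard errors). Meis2 lies above 0 in both panels (4.31 and 4.42) and Bhlha15 below 0 (-1.68 and -3.60), and Cited1 has no value in sham alone.

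The order of the classes was read from the ranges of the libraries. In sham, Bhlha15 was highest in luminal cells and did not overlap any other class, followed by proximal cells, whose range of 40.6 to 128 CPM lay above fibroblasts (19.6 and 30.8). In te2 the luminal values of 73.4 and 88.5 CPM stayed above the proximal values of 55.2 and 58.0. Meis2 was highest in fibroblasts in both groups, and proximal and basal cells overlapped in sham but not in te2, where basal cells were higher (81.5 and 112 against 32.1 and 37.8 CPM). Lmo4 was highest in proximal cells in sham (1438 and 1745 CPM, the next class 540.3 at most), whereas in te2 proximal and basal cells overlapped. Maf was highest in basal cells in sham (797 and 1589.9 CPM), and in te2 macrophages (557 and 628 CPM) were above fibroblasts and basal cells, with the latter pair overlapping. Bhlhe41 was highest in basal cells in both groups.

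The profiles over the 20 sums of class and library were compared with those of 7134 genes at a mean of at least 20 CPM, by Pearson's r of log2(CPM + 1). These sums share libraries and depth, so r is a description. The 3 genes most like Bhlha15 were Gm14542 (r = 0.94), Nucb2 (0.89) and Cited4 (0.87). For Maf they were Marcks (0.97), Flna (0.97) and Zfp36l2 (0.97), and for Meis2 they were Prss23 (0.92), Igfbp5 (0.91) and Amotl2 (0.91). Mecom (0.90), Syne2 (0.88) and Ermp1 (0.88) were most like Lmo4. Rdh12 (0.89), Palld (0.89) and Nfxl1 (0.88) were most like Bhlhe41, and Serpinb11 (0.92), Sec61b (0.90) and Rasd1 (0.89) most like Cited1. Creb5 had the least similar partners, Itpripl2 (0.74), Acly (0.69) and Magt1 (0.67). Between the 7 genes, r ran from -0.80 (Bhlha15 and Maf) to 0.79 (Maf and Bhlhe41).

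The genes around each factor were read from lists, given as counts past an adjusted p of 0.05 in edgeR, with median log2 changes beside that of all genes tested. Of all genes tested, 18.0% rose and 14.0% fell in luminal te2 cells. In proximal cells 5.54% rose and 4.78% fell, and in basal cells 4.94% and 2.79%. List counts near these shares are not read as results about a family. Of 11 genes linked to Bhlha15 and regulated secretion, 7 fell in luminal te2 cells and none rose, with a median of -0.66 against -0.01 for all genes. Gjb1, a gap junction protein, fell from 59.9 and 85.7 CPM to 24.6 and 22.2 (log2 change -1.70 ± 0.18, adjusted p = 1.11e-05). Rab3d, a GTPase of secretory granules, fell from 209.9 and 222 CPM to 103 and 104 (-1.12 ± 0.13, adjusted p = 2.27e-05). Mcfd2, a factor of cargo transport from the endoplasmic reticulum, fell by 0.98 ± 0.16 on the log2 scale and Sel1l, of the degradation of proteins there, by 0.66 ± 0.14. Xbp1, which acts with Bhlha15 in secretory cells, stood at 182 and 193 CPM in sham and 169 and 168 in te2 and did not pass (-0.21 ± 0.12, adjusted p = 0.215). With 1 library left out at a time 5 or 6 of these genes fell, and 4 did in cells of 2000 to 6000 UMIs. None of the 9 and 8 of these genes tested in proximal and basal cells passed.

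The CREB and ATF family had 7 of 18 genes lower in luminal te2 cells and none higher, with a median of -0.32. Creb3l2, a factor of secretory capacity, fell from 103 and 105 CPM to 63.1 and 49.9 (-0.94 ± 0.14, adjusted p = 0.000228), and Atf6, a sensor of the unfolded protein response, from 39.0 and 33.7 CPM to 22.2 and 22.4 (-0.75 ± 0.17, adjusted p = 0.00432). Atf7 and Atf4 were at -0.61 ± 0.18 and -0.60 ± 0.14. DESeq2 called 1 of the 18 and cells of 2000 to 6000 UMIs gave 1, against 5 to 7 lower when a library was left out. In proximal cells 1 of 17 rose (Creb3l4, 1.73 ± 0.57) and 1 fell (Crtc3, -0.98 ± 0.31). In basal cells 1 of 16 fell (Creb3l2, -1.18 ± 0.33), and it did not pass in cells past exactly 1 gate.

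Among 23 prostate epithelial factors tested in luminal cells 5 rose and 1 fell in te2, where 18.0% of all genes rose and 14.0% fell. Klf5 rose from 35.7 and 22.5 CPM to 68.5 and 57.0 (1.07 ± 0.20, adjusted p = 0.000967), and Tfcp2l1 from 69.98 and 79.4 CPM to 174 and 124 (0.93 ± 0.16, adjusted p = 0.000533). Ehf, an epithelial ETS factor, rose by 0.88 ± 0.14 and Klf4 by 0.73 ± 0.22. The number that rose was 3 without sham replicate 2 and with DESeq2. In proximal cells 2 of 23 rose and 5 fell. Zbtb16 rose by 1.64 ± 0.52 on the log2 scale. Foxq1 fell from 108 and 89.9 CPM to 25.4 and 28.4 (-1.76 ± 0.31, adjusted p = 9.81e-06) and Sox2 fell by 1.41 ± 0.39. Without sham replicate 2, and likewise without either te2 library, 1 rose and 1 fell. In basal cells Ehf alone of 23 passed (1.29 ± 0.31), and it did not pass with stricter gates or in cells past exactly 1 gate.

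Hoxb13, the posterior HOX factor of the prostate and a possible partner of MEIS proteins, rose in all 3 epithelial classes. It stood at 596 and 669.7 CPM in sham and 1019 and 999 in te2 luminal cells (0.62 ± 0.13, adjusted p = 0.00237). In proximal cells it stood at 311 and 519 against 1040 and 991 CPM (1.22 ± 0.25). In basal cells it stood at 309 and 316.5 against 728 and 608 CPM (1.14 ± 0.26). The luminal call was lost in cells of 2000 to 6000 UMIs, and the basal call with stricter gates and in thinned sums. Of the TALE and HOX list 2 of 14 rose and 1 fell in luminal cells, 1 of 16 rose and 1 fell (Hoxa13, -1.34 ± 0.33) in proximal cells and 1 of 16 rose in basal cells.

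Of the remaining lists, the clock had 1 of 16 higher and 3 lower in luminal cells (Rora -0.78 ± 0.23, Csnk1d -0.54 ± 0.15) and 0 of 17 higher and 4 lower in proximal cells (Tef -1.16 ± 0.32, Per3 -1.05 ± 0.29). No clock gene of 15 passed in basal cells. The partners and inhibitors of basic helix-loop-helix factors had 2 of 8 higher and 1 lower in luminal cells (Hes1 0.57 ± 0.15, Id4 -1.31 ± 0.23) and none in the other 2 classes. The LIM domain complex had 2 of 7 higher and 1 lower in luminal cells (Lmo2 1.25 ± 0.24, Ssbp3 -0.46 ± 0.13). The MAF and CNC family had none of 8 in luminal or proximal cells and 1 of 8 lower in basal cells (Nfe2l2 -0.76 ± 0.24). Of the CITED and p300 partners Tfap2a fell in luminal cells (-0.64 ± 0.14) and Cited4 in proximal cells (-0.70 ± 0.22). Cited2 rose in proximal (1.06 ± 0.23) and basal cells (0.98 ± 0.31). The basal calls of Nfe2l2 and Cited2 were lost with stricter gates and in cells past exactly 1 gate.

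Several of these calls rested on 1 library. In luminal cells the adjusted p passed 0.05 without te2 replicate 1 for Klf4 (0.0505), Rora (0.0537), Atf4 (0.0823), Atf7 (0.156), Hes1 (0.159) and Ssbp3 (0.182). It did so without te2 replicate 2 for Csnk1d (0.136), without sham replicate 1 for Csnk1d (0.0773), Atf7 (0.0917) and Rora (0.119), and without sham replicate 2 for Ssbp3 (0.0577) and Klf4 (0.138). In proximal cells Hoxb13 just missed the threshold without te2 replicate 1, and the adjusted p was, for Cited2, 0.0878 and 0.114 without te2 replicate 1 or 2 and, without sham replicate 2, 0.113 for Foxq1 and 0.419 for Hoxa13. Creb3l4, Crtc3, Cited4, Per3, Tef, Sox2 and Zbtb16 passed 0.05 in 2 or more of the 4 fits. Tef, Per3, Sox2, Crtc3 and Cited4 had an adjusted p from 0.538 to 0.988 without sham replicate 2. In basal cells Hoxb13 reached 0.135 without te2 replicate 1 and 0.0548 without sham replicate 2, Ehf 0.150, 0.0591 and 0.0627 without te2 replicate 1, sham replicate 1 or sham replicate 2, and Creb3l2 0.997 without sham replicate 2, while Cited2 and Nfe2l2 missed the threshold in each of the 4 fits.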

How the data were processed

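Single-cell libraries of 2 sham and 2 te2 ventral prostates were used. The authors deposited raw UMI counts per gene and cell, made on GRCm39 with bustools 0.39.4, kallisto 0.46.1, Seurat 5.0.1 and R 4.3.2, per the submitters' processing notes, which give no roles. The 7 genes, the gates and the gene lists were chosen with earlier results of these data known, so list counts give no independent support. Each list named at most 4 genes per class, those of largest log2 change past an adjusted p of 0.05 at a mean log2 CPM of at least 4. Promoter windows and RefSeq names come from GRCm38.p6, and no other coordinates were used.

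Counts were summed per class and library (classes with at least 20 cells) and fitted with edgeR 4.0.16 in R 4.3.3 (two-sided quasi-likelihood test with TMM factors and filterByExpr, Benjamini-Hochberg over all genes tested). Class comparisons had the library as a block. The standard error is the absolute log2 change over the square root of F. Libraries held 3999690 to 13134017 UMIs. Doublets were not called, and cells past exactly 1 gate were an alternative. The labels pair no animals across groups. With 2 mice a group the p-values rest largely on spread pooled over genes. Intervals are exact and cover counting error only. The fit was also run on simulated counts that gave every gene the same spread beyond counting error. That run does not show how the fit does with the spread of these data. Sums used Python 3.11.15, numpy 2.4.6 and scipy 1.17.1, and DESeq2 1.42.0 was an alternative. Free RNA, or fewer cells of a kind within a gate, cannot be told apart from less RNA per cell. 1 gene of the lists is not reported by name here.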

Additional observations from a re-analysis of the deposited data

Results flagged for a closer look

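Outside the 5 classes, 3 levels had each te2 library above each sham library. The share of all genes without overlap was not computed for these cells and barcodes. In the 5 classes it was 49.7% to 66.7%, so nothing is read from the number of such levels. In the 1434 kept cells with no class, Cited1 stood at a mean of 64.2 CPM in te2 (60.2 and 68.3) against 3.20 in sham (6.39 and 0). In the barcodes left out by the cell filter, Cited1 stood at a mean of 23.7 CPM in te2 (10 and 7 counts) against 4.37 in sham (0 and 4 counts). Lmo4 in these left-out barcodes stood at a mean of 355 CPM in te2 (402 and 309) against 183 in sham (194 and 173). In the kept cells with no class Lmo4 went the other way, at 391 and 330.4 CPM in te2 against 703 and 548 in sham. Bhlha15 in the left-out barcodes stood at a mean of 27.9 CPM in te2 (35.2 and 20.6) against 235 in sham (235 and 234), and in the cells with no class at 81.9 and 89.1 CPM in te2 against 99.0 and 223 in sham. Creb5 and Bhlhe41 were also lower in each te2 library than in each sham library in both sets of cells, and Meis2 and Maf in the cells with no class.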

How the results depend on the processing

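Counts of genes past the threshold depended on the processing, in part because fewer samples or counts were tested. In luminal cells 3515 genes differed between te2 and sham, 1661 with DESeq2 (1108 higher and 553 lower) and 1186 in cells of 2000 to 6000 UMIs, an alternative chosen after seeing the data. In proximal cells 1039 differed, 251 with DESeq2, 150 in thinned sums and 233 to 817 with 1 library left out. In basal cells 706 differed, 328 in cells past exactly 1 gate, 221 with DESeq2, 398 with stricter gates, 94 in thinned sums and 148 to 369 with 1 library left out. Between proximal and luminal cells 1795 differed, 1054 with DESeq2, 5853 with library totals, 3120 in te2 alone, 723 in thinned sums and 1028 to 2090 with 1 library left out. Between basal and luminal cells 5279 differed, 1933 in sham alone, 2354 in thinned sums and 2881 to 5145 with 1 library left out. The cause was not tested.

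With the replicate number as a block, 614 genes differed in proximal cells and 456 in basal cells. The labels give the numbers no shared animal, litter or day, and same-numbered libraries deviated with a correlation of 0.02, 0.00449 and -0.02 in luminal, proximal and basal cells.

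Between proximal and luminal cells the direction turned for Bhlhe41 with library totals (0.19) and for Maf in sham alone (-0.35). Between te2 and sham it turned, without sham replicate 2, for Bhlha15 in proximal cells (0.78, and -1.18 without sham replicate 1), Meis2 in basal cells (0.48), Cited4 in proximal cells (0.0157, and -0.83 without sham replicate 1) and Creb3l2 in basal cells (0.0143, and -1.40 without sham replicate 1). Among changes near 0 it also turned for luminal Lmo4 (0.16) without te2 replicate 1 (-0.18) and in cells of 2000 to 6000 UMIs (-0.41), luminal Meis2 (-0.26) in cells of at least 1000 UMIs (0.35), basal Lmo4 (0.23) in thinned sums (-0.04) and basal Bhlha15 (0.30, from 3 sham counts) without sham replicate 1 (-0.05). In cells of 2000 to 6000 UMIs, 61 and 77 te2 luminal cells, the luminal log2 change was -2.29 for Bhlha15, -5.02 for Creb5, -1.87 for Bhlhe41, -2.49 for Maf and 2.72 for Cited1. Of 238 alternative values for the te2 contrast of the 7 genes, 202 moved by less than the spread between libraries. That spread is the pooled standard deviation of the 2 libraries of each group, and is widest for the noisiest genes. Leaving out 1 library shifts the mean log2 level of a group by no more than this. The number of unmoved values is therefore no measure of robustness. In cells of at least 1000 UMIs proximal Maf was 1.29. Of 473 alternative values for the te2 contrast of the named list genes, 109 kept their sign but did not pass the threshold, and 2 turned their sign. Stricter gates and the UMI window could not be fitted for proximal cells, nor at least 1000 UMIs and that window for basal cells, since a library had under 20 cells.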
